A study of Mus musculus with 4 samples.

Results

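The genes examined were 10 genes of the skeletal muscle thin filament, out of 21911 protein-coding genes of GENCODE release M21 on the mm10 genome, and the measurement was the position of histone 3 phosphorylated at serine 10 (H3S10ph) on them. They were chosen by name: *Acta1*, the troponin genes *Tnnt3*, *Tnnt1*, *Tnni2*, *Tnni1* and *Tnnc2*, the tropomyosin genes *Tpm1*, *Tpm2* and *Tpm3*, and *Capzb*. H3S10ph was mapped by chromatin immunoprecipitation followed by sequencing (ChIP-seq) in gastrocnemius muscle of male C57BL/6 mice aged 5 months. Stimulated muscles performed 50 eccentric contractions under xylazine and Zoletil anaesthesia, with tetani of 600 ms at 100 Hz given 30 s apart, and were frozen immediately afterwards. Unstimulated muscles came from the contralateral leg of the same mice, so that the conditions share animals, and the tests below, which treat the 4 samples as independent, do not use this. Each condition had 2 samples, and each sample was a pool of gastrocnemius muscles from 6 mice, so that differences between single mice and between cell types of the muscle could not be seen. The authors called peaks in each sample separately. Each of the resulting 4 peak lists is named below by its condition and replicate number.

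The thin filament is built on a backbone of actin. Tropomyosin lies along the actin and covers the sites to which myosin binds, and the troponin complex moves it when calcium rises: troponin C binds calcium, troponin I inhibits the contact of actin with myosin, and troponin T ties the complex to tropomyosin. Fast and slow fibres use different genes for most of these subunits, and the mouse gastrocnemius is mostly a fast muscle. H3S10ph is a mark of condensed mitotic chromosomes and, in cells that do not divide, of genes that respond within minutes to stress or growth signals.

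The peak lists differed in length within a condition. There were 9094 peaks in unstimulated 1 and 32740 in unstimulated 2, against 10901 in stimulated 1 and 40683 in stimulated 2. Their fold enrichments and p-values are those of the peak caller against input DNA. According to the methods, replicates were down-sampled to the one with the fewest reads. The lists give no read counts, so that the depth of each sample could not be checked. Most peaks were weak. The cutoff given in the methods, 0.001 or 3 on the −log10 scale, was passed by 12.9% of peaks in unstimulated 1, 2.93% in unstimulated 2, 17.7% in stimulated 1 and 3.22% in stimulated 2. Unstimulated 1 stood apart from the other 3 samples. It held 522 peaks on chromosome X, where the others held 19, 19 and 16, and 0 on chromosome Y, where the others held 7, 6 and 6. Its library number (627) lay far from theirs (930, 931 and 933), and why it differs was not tested. None of the 10 genes lies on chromosome X or Y. The differences between conditions in bases covered, in genes with a peak and in fast minus slow coverage are also given without unstimulated 1. A gene without a peak is a gene without a call, and the mark is no measure of RNA.

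The first question was which thin filament genes carried H3S10ph at all. A peak lay on or within 5 kb of 1 of the 10 genes in unstimulated 1, 7 in unstimulated 2, 6 in stimulated 1 and 8 in stimulated 2. Over all protein-coding genes the corresponding shares were 14.0%, 39.3%, 19.9% and 52.5%. Counting the gene body alone, from the annotated start to the annotated end, 1, 6, 5 and 6 of the 10 genes had a peak, against 11.9%, 31.2%, 16.0% and 42.3% of all genes. The count was thus near the background in unstimulated 1 and above it in the other 3 lists. Among the 17315 genes within the range of lengths of the 10 genes (2.603 to 98.92 kb) the shares with a peak on the body were lower, at 7.83%, 26.8%, 11.8% and 39.7%. The genes fell into a few with large or repeated coverage and a remainder with little or none. *Tnnt3* had a peak on its body in all 4 lists, as did 4.08% of all genes. *Acta1*, *Tpm1* and *Capzb* had one in the same 3 lists, missing unstimulated 1. *Tnni2* had one in 2 lists and *Tnnc2*, *Tpm2* and *Tpm3* in 1 list each, whereas the slow troponins *Tnnt1* and *Tnni1* had none in any list, like 44.2% of all genes.

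**Figure D1:**
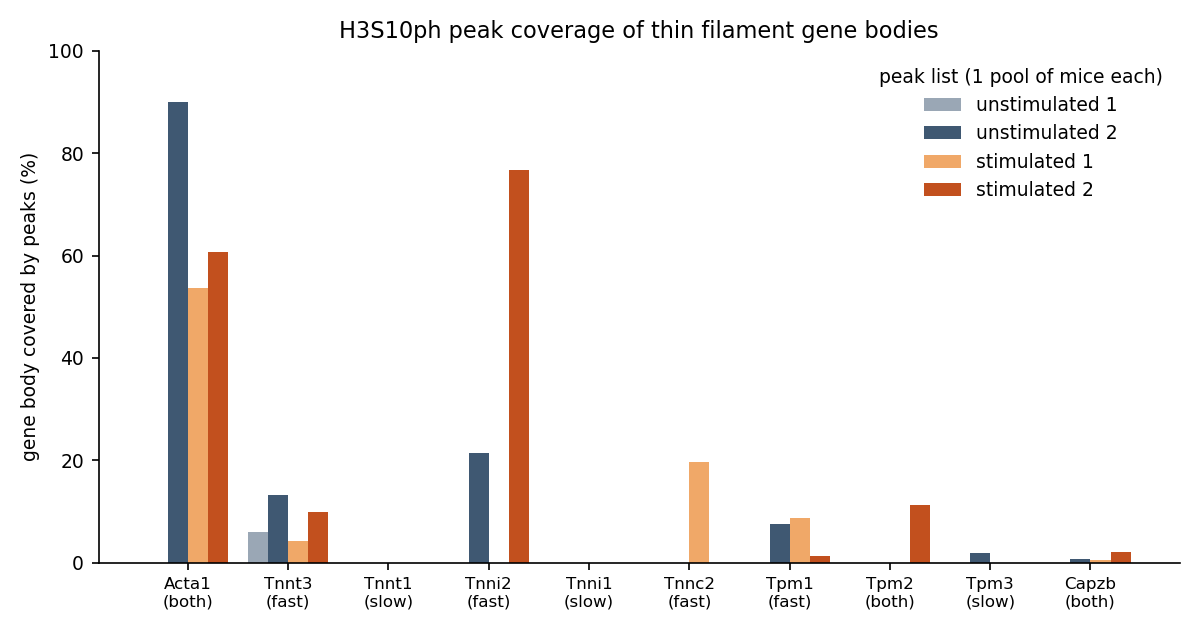
Percent of each gene body covered by H3S10ph peaks (y axis) for the 10 thin filament genes (x axis, with the fibre type that mainly uses the gene), with 1 bar for each of the 4 peak lists and no bar where the value is 0. Acta1 is covered in 3 lists, from 53.6% to 90.0%, and Tnni2 reaches 76.7% in stimulated 2, while Tnnt1 and Tnni1 have no bar.

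*Acta1*, the gene of skeletal alpha-actin, was covered more than any of the other 9 genes in unstimulated 2 and stimulated 1, and was second to *Tnni2* in stimulated 2. The gene (chr8:123891769-123894751, minus strand, 2983 bp) was covered over 0% of its body in unstimulated 1, 90.0% in unstimulated 2, 53.6% in stimulated 1 and 60.8% in stimulated 2. The stimulated values therefore lay between the unstimulated ones, and the groups overlapped. The mean was 45.0 ± 63.6% (SD, n = 2) in unstimulated and 57.2 ± 5.05% in stimulated muscles, a difference of 12.2 percentage points (exact permutation test, two-sided p = 1). Without unstimulated 1, both stimulated values lay below the remaining unstimulated value. With 2 samples against 2 the smallest p that this test allows is 0.333, so that it cannot reach 0.05 for any gene.

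Each of the 3 lists placed a peak over the 3′ side of *Acta1*. The peak of unstimulated 2 was 3608 bp wide, began 298 bp after the annotated gene start and ran 923 bp past the gene end, that of stimulated 1 was 2098 bp wide and began at 1383 bp, and that of stimulated 2 was 2381 bp wide and began at 1170 bp. The peak of stimulated 1 lay wholly inside the other 2, so that the stretch common to all of them was chr8:123891271-123893368. These peaks also overlapped *Gm20388*, another protein-coding gene model annotated there. Their fold enrichments were 2.62, 2.58 and 2.56, with −log10 p of 3.55, 3.43 and 3.36. They ranked 175 of 32740, 732 of 10901 and 464 of 40683 in their lists by fold enrichment, and they were the only peaks on the bodies of the 10 genes to pass a −log10 p of 3, apart from a peak in *Capzb*. Coverage of at least 50% in at least 3 lists, a rule set after these values were seen, was met by 2 of the 21911 genes (0.00913%), namely *Acta1* and *Tcap*.

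No peak of any list covered the promoter of *Acta1*. The promoter is shown because it carries the CArG box, the site bound by serum response factor (SRF), and because none of the peaks on the gene reached it. The sequence is that of RefSeq on GRCm38.p6, the build of mm10, on the minus strand. It is chr8:123894776-123895025, the 250 bases before the RefSeq start of *Acta1*, with matches to the CArG box, the MCAT site and the TATA box in capitals.
Acta1 promoter: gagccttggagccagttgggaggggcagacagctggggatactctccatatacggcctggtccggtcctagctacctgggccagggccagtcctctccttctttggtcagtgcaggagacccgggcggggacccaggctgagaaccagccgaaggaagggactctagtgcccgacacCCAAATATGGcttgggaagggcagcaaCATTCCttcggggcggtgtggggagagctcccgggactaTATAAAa

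Counted from the RefSeq start, which lies 24 bp upstream of the GENCODE start, the CArG box spans bases −73 to −64, the MCAT match −46 to −41 and the TATA match −7 to −2. Of the 10 genes, 8 had entries in the RefSeq promoter table (10 promoters in all), and *Acta1* was the only gene among them with a CArG box in the 250 bases before the start. A CArG box on either strand was found in 1.47% of 32851 promoters of the same length. The TATA box, searched as TATAAA, was found in 12.4% of them, with *Acta1* and *Tnnt1* among the 8 genes. The MCAT site, searched as CATTCC, was found in 12.6%, with *Acta1* and *Tpm1*, and the E-box CANNTG in 66.2%, with all 8 genes. A MEF2 site was found in 2.92% and in none of the 8 genes. These motifs do not overlap one another in the *Acta1* promoter, and a match is a match of letters only.

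Among the troponin T genes, the fast isoform *Tnnt3* (chr7:142498836-142516009, plus strand) carried peaks in every list but at different places. Its body was covered over 5.92% in unstimulated 1, 13.2% in unstimulated 2, 4.21% in stimulated 1 and 9.93% in stimulated 2. The groups overlapped, with means of 9.57 ± 5.17% (SD, n = 2) in unstimulated and 7.07 ± 4.04% in stimulated muscles (exact permutation test, two-sided p = 0.667). The difference of −2.50 points turned to 3.15 with lists of equal length. It turned to 2.105 under a −log10 p limit of 2.5, where only stimulated 1 had a peak on the body. In both stimulated lists a peak lay toward the 3′ end of the gene, starting 13525 bp and 13266 bp after the gene start, and these shared 723 bp (chr7:142512361-142513083). The peak of unstimulated 1 started at 8314 bp and those of unstimulated 2 at 6636 and 14686 bp, and they overlapped no peak of another list. None of the *Tnnt3* peaks had a −log10 p of 3 or more, and the best-ranked of them, at 3901 of 40683 in stimulated 2, lay 2775 bp upstream of the gene. The slow isoform *Tnnt1* (chr7:4504570-4516382, minus strand) had no peak on its body. Its flanks held 1 peak in unstimulated 2, which lay 1689 bp upstream and on the cardiac troponin I gene *Tnni3*, and 2 peaks in stimulated 2, downstream of the gene, of which 1 lay on *Ppp1r12c*, the gene of a myosin phosphatase subunit.

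The troponin I genes differed in the same direction. The fast isoform *Tnni2* (chr7:142441808-142444410, plus strand, 2603 bp) was covered over 0% in unstimulated 1, 21.5% in unstimulated 2, 0% in stimulated 1 and 76.7% in stimulated 2. It was thus called in the longer list of each condition and in neither of the shorter ones, and the groups overlapped (difference of 27.6 percentage points, exact permutation test, two-sided p = 1). The difference turned to −10.8 points with lists of equal length, and under a −log10 p limit of 2.5 no list had a peak on the *Tnni2* body. As in *Acta1*, the peaks lay over the 3′ side: that of unstimulated 2 began 2043 bp after the start and ran 495 bp past the end, and that of stimulated 2 began at 606 bp and ran 696 bp past the end. They shared 1055 bp. Neither was strong, with ranks of 8339 of 32740 and 14177 of 40683. A further peak in stimulated 2, 2122 bp downstream of the gene and 237 bp wide, ranked 283 of 40683 with a −log10 p of 3.58. The slow isoform *Tnni1* (chr1:135779434-135810989, plus strand) had no peak on its body and 1 peak in stimulated 2, 2273 bp upstream, at rank 24224. *Tnni2* and *Tnnt3* are neighbours on chromosome 7, with 54425 bp between them, and no peak was shared between them.

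*Tnnc2*, which encodes the calcium-binding subunit of fast fibres (chr2:164777161-164779967, minus strand, 2807 bp), had 1 peak. Its body was covered over 19.7% in stimulated 1 and 0% in the other 3 lists (exact permutation test, two-sided p = 1). The peak was 838 bp wide, lay across the gene end and also reached *Ube2c*, the gene of a ubiquitin-conjugating enzyme of the cell cycle, and ranked 5430 of 10901.

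**Figure D2:**
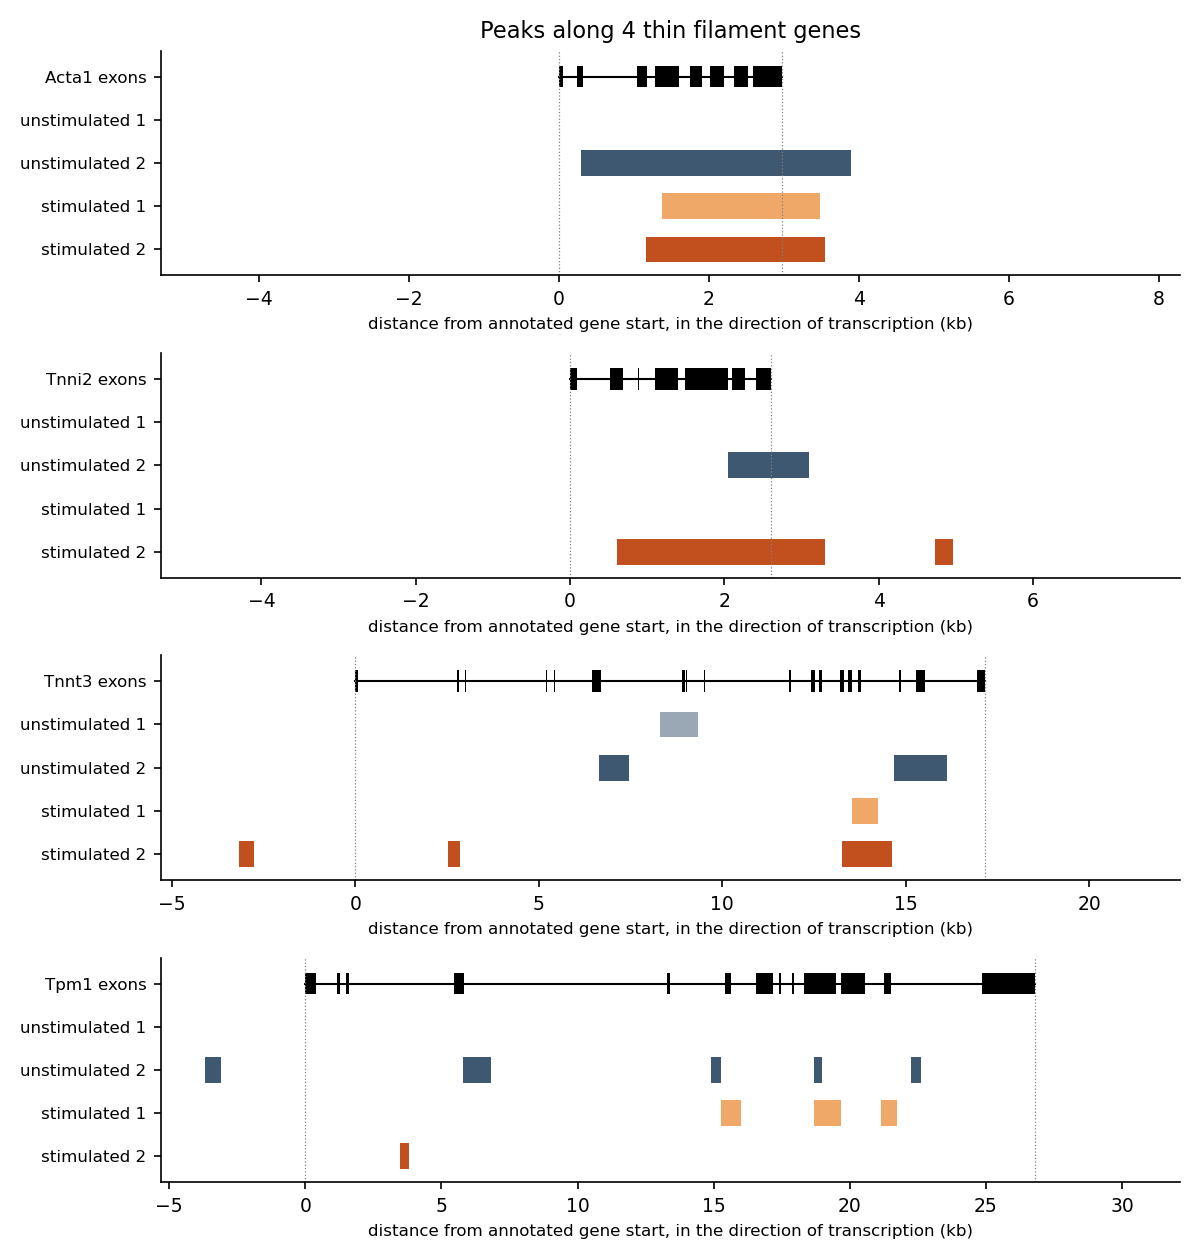
Exons (black boxes) and H3S10ph peaks (coloured boxes, 1 row for each peak list) along Acta1, Tnni2, Tnnt3 and Tpm1, by distance in kb from the annotated gene start in the direction of transcription. Dotted lines mark the gene start and end, and peaks within 5 kb of the gene are drawn. The peaks on the bodies of Acta1 and Tnni2 lie over the gene end, a further Tnni2 peak of stimulated 2 lies 2122 bp past it, no peak lies over a gene start, and those of Tnnt3 and Tpm1 are scattered along the gene.

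Of the tropomyosin genes, *Tpm1* (chr9:67022590-67049406, minus strand), the alpha-tropomyosin of fast fibres, had the most peaks. Its body was covered over 0% in unstimulated 1, 7.66% in unstimulated 2, 8.77% in stimulated 1 and 1.23% in stimulated 2. The stimulated values fell on both sides of that of unstimulated 2, and the means were 3.83 ± 5.42% (SD, n = 2) and 5.00 ± 5.33% (exact permutation test, two-sided p = 0.667). There were 4 peaks on the body in unstimulated 2, 3 in stimulated 1 and 1 in stimulated 2. Those of unstimulated 2 and stimulated 1 shared 2 stretches, of 266 bp and 30 bp, while the peak of stimulated 2, at rank 31585 of 40683, overlapped neither. *Tpm2*, the beta-tropomyosin of both fibre types (chr4:43514711-43523765, minus strand), was covered over 11.3% in stimulated 2 and 0% in the other 3 lists. It was the only one of the 10 genes with a peak within 5 kb in both stimulated lists and neither unstimulated list, a pattern of 3.85% of all genes, and the mirrored pattern, found in 0.867% of all genes, was met by none of the 10. The flanking peaks of *Tpm2* did not overlap between the stimulated lists. That of stimulated 1 lay 2864 bp downstream of the gene and on *Car9*, a carbonic anhydrase gene, and the best-ranked of stimulated 2, at 1103 of 40683, lay 184 bp past the gene end. *Tpm3* (chr3:90072649-90100902, plus strand), the slow alpha-tropomyosin, had 2 peaks in unstimulated 2 that covered 1.86% of its body and none in the other lists. The first lay in an intron and the second across the gene end.

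*Capzb* encodes the beta subunit of the capping protein, which closes the barbed end of the actin filament at the Z-disc. It is the longest of the 10 genes (chr4:139192899-139291818, plus strand, 98920 bp) and was covered over 0% in unstimulated 1, 0.814% in unstimulated 2, 0.515% in stimulated 1 and 2.15% in stimulated 2. Its values in unstimulated 2 and in the stimulated lists overlapped (means of 0.407 ± 0.575% and 1.33 ± 1.16%, SD, n = 2; exact permutation test, two-sided p = 0.667). There were 3, 2 and 5 peaks on the body in these 3 lists. They lay in introns and did not overlap between lists. A 263 bp peak of unstimulated 2 (chr4:139280668-139280930) had the best rank of any peak near the 10 genes, 27 of 32740, with a fold enrichment of 2.84 and a −log10 p of 4.03, and no peak of another list lay over it.

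Within their own lists the peaks near the 10 genes had ranks spread over most of the list. There were 46 such peaks in all, 1 in unstimulated 1, 15 in unstimulated 2, 9 in stimulated 1 and 21 in stimulated 2. Their fold enrichments ran from 2.01 to 2.84, where the median of all peaks was 2.25 in unstimulated 1, 2.09 in unstimulated 2, 2.27 in stimulated 1 and 2.09 in stimulated 2 and the highest 15.5, 12.6, 8.44 and 15.9, and their widths from 228 to 3608 bp, with a median of 457 bp. Of the 46, 11 ranked in the first 10% of their list, of which 4 were in unstimulated 2, 1 in stimulated 1 and 6 in stimulated 2. The median rank of the 46 was at 36.8% of the list. The peaks of *Acta1* stood at 0.535%, 6.71% and 1.14%, and the best peak of *Capzb* at 0.0825%, while the peak of *Tnnt3* in unstimulated 1 stood at 91.4%. Of the 46 peaks, 6 had a −log10 p of at least 3.

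**Figure D3:**
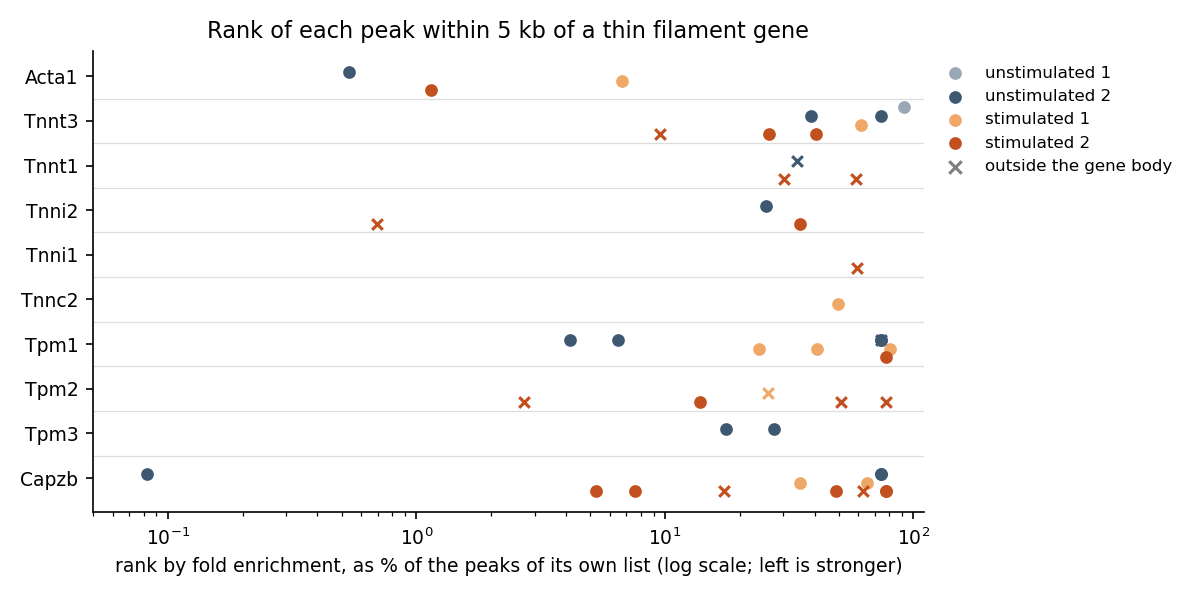
Rank by fold enrichment of each of the 46 peaks within 5 kb of a thin filament gene, as percent of the number of peaks in its own list (x axis, log scale, strongest at the left), by gene (y axis) and list (colour), with circles for peaks on the gene body and crosses for peaks outside it. The peaks of Acta1 lie at or below 6.71% in 3 lists, and the point farthest left is a Capzb peak of unstimulated 2.

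The position of the peaks along the genes was compared with that over all genes, a comparison added after the values were seen. Of the 33 peaks on gene bodies, 18 touched an annotated exon and 15 lay in introns only. No share over all genes is given for this split, so it cannot be read against the background. None of the 46 peaks covered the annotated start of a member gene. The start was thus covered for 0 of the 10 genes, near the share of 2.99% of all genes covered there in at least 1 list. Peaks in stimulated 2 covered later transcript starts inside *Tnnt3* and *Tnni2*. The annotated end was covered in at least 1 list for 4 of the 10 genes, *Acta1*, *Tnni2*, *Tnnc2* and *Tpm3*, against 2.42% of all genes and 2.51% of genes in the same range of lengths. These made 7 peaks, of which 3 were in unstimulated 2 and 2 in each stimulated list, so that the position over the gene end was seen in both conditions.

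The second question was whether the mark on thin filament genes differed between stimulated and unstimulated muscles. None of the 10 genes had a higher covered share in both stimulated lists than in both unstimulated lists, beside 4.97% of all genes. None had a higher share in both unstimulated lists, beside 1.45% of all genes. Among 10 genes, a count of 0 lies near such shares. The count higher in both stimulated lists was 1 under a −log10 p limit of 2.5, with lists of equal length and with the 5 kb window. Without unstimulated 1 the count of genes higher in both stimulated lists was again 0 of 10, against 5.53% of all genes, and 3 of the 10, *Acta1*, *Tnnt3* and *Tpm3*, were higher in unstimulated 2 than in both stimulated lists, against 16.5% of all genes. Without unstimulated 2, *Acta1*, *Tpm1* and *Capzb* were higher in both stimulated lists, against 9.98% of all genes. Without stimulated 1 the count was 3 (*Tnni2*, *Tpm2* and *Capzb*), against 33.5% of all genes, and without stimulated 2 it was 2 (*Tnnc2* and *Tpm1*), against 8.13%. Taken within replicate numbers, *Capzb* alone was higher in the stimulated list of both, against 7.66% of all genes. The call on single genes thus turned on which lists were used. Taking the 10 gene bodies as 1 length, peaks covered 0.438% of it in unstimulated 1, 3.84% in unstimulated 2, 2.47% in stimulated 1 and 3.88% in stimulated 2. Over the bodies of all genes the values were 0.202%, 0.739%, 0.257% and 1.29%. With all deposited peaks the 10 genes were covered more than all genes in each list. In unstimulated 1 this rested on 1 peak, in *Tnnt3*, at rank 8310 of 9094. Under a −log10 p limit of 2.5 the 10 genes were covered over 0% in unstimulated 1. There 0 of the 10 had a peak on the body, beside 8.26% of all genes, and among 10 genes a count of 0 lies near such a share. With all deposited peaks the means of the 10 genes were 2.14 ± 2.403% (SD, n = 2) in unstimulated and 3.18 ± 0.993% in stimulated muscles. Their ratio was 1.49, beside a ratio of 1.64 over all genes. The difference of 1.04 percentage points was smaller than the spread between the unstimulated samples. Without unstimulated 1 it was −0.662, with a ratio of 0.827 beside 1.04 over all genes. It was 2.74 without unstimulated 2, 4.89 over exons only and 0.1002 with only the peaks that passed a −log10 p of 3. Over exons the means were 4.66% in unstimulated and 9.55% in stimulated muscles. Unstimulated 2 lay just below both stimulated lists there, so that the 4.89 points came mostly from unstimulated 1. The number of genes with a peak within 5 kb was 4 ± 4.24 (SD, n = 2) in unstimulated and 7 ± 1.41 in stimulated muscles, a ratio of 1.75. Over all 21911 genes the means were 5842.5 and 7932, a ratio of 1.36. The difference of 3 genes fell to 0 without unstimulated 1. Over all genes, unstimulated 2 alone had 8618, beside the stimulated mean of 7932.

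The third question was how the isoforms of fast and slow fibres compared. The 4 fast genes (*Tnnt3*, *Tnni2*, *Tnnc2* and *Tpm1*) had a peak on the body in 10 of 16 combinations of gene and list, and the 3 slow genes (*Tnnt1*, *Tnni1* and *Tpm3*) in 1 of 12. The fast genes held 17 peaks on 49401 bp and the slow genes 2 peaks on 71623 bp. By list, 1, 3, 3 and 3 of the 4 fast genes and 0, 1, 0 and 0 of the 3 slow genes had a peak on the body in unstimulated 1, unstimulated 2, stimulated 1 and stimulated 2, beside 11.9%, 31.2%, 16.0% and 42.3% of all genes. Within 5 kb, 1, 3, 3 and 3 of the 4 fast genes had a peak, and 0, 2, 0 and 2 of the 3 slow genes. The corresponding shares of all genes were 14.0%, 39.3%, 19.9% and 52.5%. In the longer list of each condition the contrast between fast and slow genes was thus weaker within 5 kb than on the body. Peaks covered 2.06%, 9.89%, 7.34% and 8.16% of the fast gene bodies, and 0.734% of the slow gene bodies in unstimulated 2 and 0% in the other lists. With all deposited peaks the fast genes were therefore covered more than the slow genes in each of the 4 lists. This rested on peaks below the cutoff given in the methods: at a −log10 p of 3 or more the fast genes had a peak in 0 of 16 combinations and the slow genes in 0 of 12, while 2.16%, 1.82%, 3.66% and 3.21% of all genes had one in the 4 lists. At 2.5 or more they had a peak in 4 of 16 and 1 of 12, while 8.26%, 8.77%, 11.5% and 14.2% of all genes did. Of the genes used by both fibre types, *Acta1*, *Tpm2* and *Capzb*, a peak lay on the body in 7 of 12 combinations. The genes of a list share its peaks and were chosen by name with earlier results known, so the difference between the fast and slow genes was not tested.

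**Figure D4:**
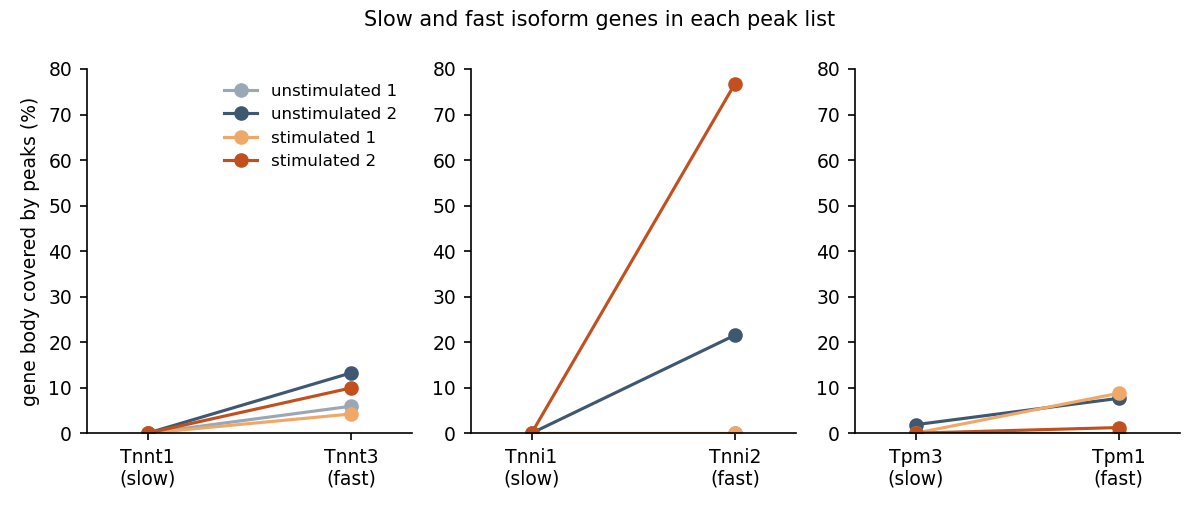
Percent of the gene body covered by peaks (y axis) for the slow and the fast gene of 3 isoform pairs, with a line for each of the 4 peak lists (lines at 0 overlap). The fast gene lies above the slow gene wherever either has a peak, and the steepest line, Tnni1 to Tnni2 in stimulated 2, runs from 0% to 76.7%.

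Within pairs, the fast gene was covered more than the slow gene, or both were at 0%, in each list. The difference between *Tnnt3* and *Tnnt1* was 5.92, 13.2, 4.21 and 9.93 percentage points in the order of lists above. Between *Tnni2* and *Tnni1* it was 0, 21.5, 0 and 76.7, and these genes differ in length, with 2.603 kb for *Tnni2* and 31.556 kb for *Tnni1*. Between *Tpm1* and *Tpm3*, which are of like length, it was 0, 5.80, 8.77 and 1.23. The mean over the 3 pairs was 7.74 ± 8.16 percentage points (SD, n = 2) in unstimulated and 16.8 ± 17.7 in stimulated muscles. This difference of 9.07 points was smaller than the SD of the stimulated samples and slightly larger than that of the unstimulated samples. It was 3.30 without unstimulated 1, −3.42 without stimulated 2, −1.88 with lists of equal length and 0 at a −log10 p of 3 or more. *Tnnc1*, the troponin C gene of slow and cardiac muscle, which is not among the 10, had 0% in every list, like its fast counterpart *Tnnc2* in 3 of them.

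Other sarcomere genes were counted for comparison, from lists chosen by their function. Of 20 other thin filament genes, 2, 11, 5 and 10 had a peak on the body in unstimulated 1, unstimulated 2, stimulated 1 and stimulated 2. Those with a peak within 5 kb in both lists of a condition were *Neb*, *Capza2*, *Nebl*, *Actb* and *Klhl40*. *Neb*, the giant ruler of the thin filament, was covered over 0.554%, 1.44%, 0.608% and 3.15% in that order. *Capza2*, the partner subunit of *Capzb*, was covered over 0.774%, 2.95%, 0% and 2.97%. Both had a call in the unstimulated lists, as most of the 10 genes did in unstimulated 2. *Actb*, the cytoplasmic beta-actin, had 0%, 6.95%, 2.36% and 43.8%, and *Nebl*, a relative of nebulin, 0%, 0.593%, 0.330% and 0.451%. *Klhl40*, which stabilises thin filament proteins, had 0%, 0%, 21.9% and 3.70%. It was the only 1 of the 20 with a higher share in both stimulated lists, a count near the 4.97% of all genes with this pattern.

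**Figure D5:**
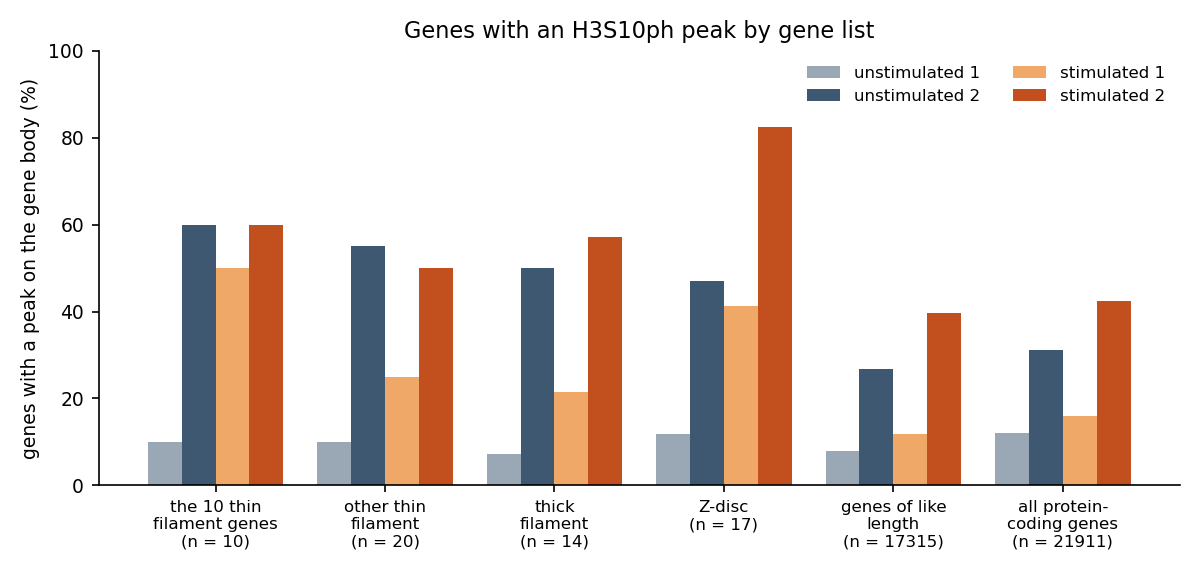
Percent of genes with an H3S10ph peak on the gene body (y axis) in each of the 4 peak lists, for the 10 thin filament genes, 3 other lists of sarcomere genes, the 17315 genes of like length and all 21911 protein-coding genes. In stimulated 1 the 10 thin filament genes stand at 50% and all genes at 16.0%, and in unstimulated 1 they stand at 10% and 11.9%.

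Of 14 thick filament genes, 1, 7, 3 and 8 had a peak on the body, and of 17 Z-disc genes 2, 8, 7 and 14. A higher covered share in both stimulated lists was found for 0 of the 14 and for 6 of the 17 (*Des*, *Xirp2*, *Pdlim3*, *Xirp1*, *Tcap* and *Ldb3*), beside 0 of the 10 thin filament genes and the 4.97% of all genes given above. Whether the lists differ was not tested. The most covered thick filament genes in stimulated muscles were *Myh4*, the fastest myosin heavy chain, with 5.43%, 43.1%, 32.3% and 61.1%, followed by *Mybpc2* and *Myom2*. The most covered Z-disc genes were *Tcap*, with 0%, 57.7%, 84.3% and 91.9%, *Xirp1*, with 0%, 16.4%, 56.6% and 57.0%, and *Flnc*, with 29.3% in stimulated 2 and 0% in the others. The 3 genes whose covered shares over the 4 lists lay nearest to those of *Acta1*, by Euclidean distance, were *Myh4* (51.8 percentage points), *Tcap* (54.4) and *Ucn* (56.4), the gene of the peptide urocortin, with 0%, 74.7%, 0% and 52.7%.

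Markers of the cells in the muscle were counted in the same way. Of 8 genes of muscle fibres, 2, 4, 5 and 6 had a peak on the body in the order of lists above, and of 12 markers of endothelial cells, fibroblasts, immune cells, satellite cells and Schwann cells 0, 4, 1 and 7 did. The shares of all genes were 11.9%, 31.2%, 16.0% and 42.3%. Taken as 1 length, the muscle fibre genes were covered over 0.890%, 9.32%, 6.55% and 16.5%. These values lean on *Ttn*, by far the longest of them at 278568 bp. The markers of other cells were covered over 0%, 0.358%, 0.118% and 1.54%. *Dcn* was the most covered of these in unstimulated 2, *Pdgfra* the only one covered in stimulated 1 and *Col1a1* the most covered in stimulated 2. With each gene given the same weight, the mean covered share of the muscle fibre genes was 0.485%, 5.15%, 3.13% and 9.87%. That of the markers of other cells was 0%, 0.390%, 0.139% and 1.32%. Both counts were lowest in unstimulated 1 and highest in stimulated 2, the shortest and the longest list, and their part in the results above was not tested.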

How the data were processed

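H3S10ph ChIP-seq of 4 samples was analysed, 2 per condition. According to the methods and the submitters' processing notes, the authors mapped reads to mm10, removed reads mapping to several places, down-sampled replicates and called broad peaks with MACS2 2.1.1 against input, separately per sample. The deposited lists give for each peak a fold enrichment (a ratio to the background) and its p-value and q-value as −log10; the deposited score column was not used. The stated cutoff was a p of 0.001, but the lists reach a −log10 p of about 2, a p of 0.01. The lists hold no counts, so precision is limited by 2 samples per condition.

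Peaks were assigned to GENCODE M21 protein-coding genes (longest model per symbol) by an overlap of at least 1 bp with the gene body or the body plus 5 kb. The covered share is the percent of gene body bases under peaks, and ranks are by fold enrichment within a list. Covered shares were compared by exact permutation tests, two-sided. Python 3.11.15, numpy 2.4.6, pandas 2.3.3 and matplotlib 3.10.9 were used, and coverage code was tested on simulated data. The 10 genes, the gene lists and the comparisons were chosen with earlier results of these data known. Named genes were the 10, other thin filament genes with a peak in both lists of a condition, up to 3 thick filament and 3 Z-disc genes with the largest stimulated share, genes sharing a peak with the 10, and the 3 genes nearest to *Acta1*; the other genes named were chosen after their values were seen. Alternatives were stricter thresholds, lists of equal length, other windows, exons only, peak midpoints, ranks by p, *Capzb* left out, each replicate left out and differences within replicate numbers; the limit of 3 for fast minus slow coverage and the shares of all genes without single lists were added after the data were seen. Some items are not reported here.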

Additional observations from a re-analysis of the deposited data

How the results depend on the processing

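The difference between conditions in the bases of the 10 genes covered (1.04 percentage points) was 4.89 over exons only. The value over exons came mostly from unstimulated 1, as unstimulated 2 lay just below both stimulated lists there. Under a −log10 p limit of 3 the difference was 0.1002. With all deposited peaks on gene bodies it ranged from −0.662 to 2.74 when 1 replicate was left out. The negative value came without unstimulated 1. The count of genes higher in both stimulated lists (0) was 1 under a −log10 p limit of 2.5 and with lists of equal length (*Capzb* each time) and 1 with the 5 kb window (*Tpm2*). No share of all genes is given for this limit, these equal lists or this window, so the counts cannot be read against the background. The count ranged from 0 to 3 with 1 replicate left out. The difference in genes with a peak (3) was 1 under a −log10 p limit of 3 and ranged from 0 to 6 with 1 replicate left out. The difference between conditions in fast minus slow coverage (9.07 points) was −1.88 with lists of equal length, 1.36 under a −log10 p limit of 2.5, 0 under a limit of 3 and 1.94 with the 5 kb window, and ranged from −3.42 to 21.6 with 1 replicate left out. Among single genes, *Tnnt3* (−2.50 points) turned to 2.105 under a −log10 p limit of 2.5 and to 3.15 with lists of equal length. *Tnni2* (27.6 points) turned to −10.8 with lists of equal length, where its peak on the body in stimulated 2 fell below the limit. Under a −log10 p limit of 2.5 it was 0, with no peak on the *Tnni2* body in any list. Fast minus slow coverage over the 4 lists (12.3 points) was 1.02 under a −log10 p limit of 2.5, with 0 in unstimulated 1 and stimulated 2, and 0 in every list under a limit of 3, a setting chosen after seeing the data. It ranged from 6.60 to 15.7 with 1 replicate left out. Apart from *Tnni2*, the cause of these changes was not tested.

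The replicate numbers are shared between conditions, and the conditions share mice, but the labels do not say that same-numbered samples come from the same mice. Deviations of same-numbered samples had a correlation of 0.0353 across all genes and 0.202 across the 10 genes, with only 2 pairs. With the numbers as a replicate block, 1 gene (*Capzb*) was higher in the stimulated list of both pairs, against 7.66% of all genes. Within replicate number 2, *Acta1* turned to −29.2 points and *Tpm1* to −6.43 points. The difference in genes with a peak was 5 and 1 within the 2 numbers, that in bases covered 2.03 and 0.0405 points, and that in fast minus slow coverage 2.35 and 15.8 points.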

Other observations

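Among the marker genes of muscle fibres, those with a peak on the body in all 4 lists were *Ttn*, the gene of the giant elastic protein titin, and *Atp2a1*, the calcium pump of fast fibres; they were singled out after their values were seen. *Ttn* was covered over 1.44% in unstimulated 1, 14.7% in unstimulated 2, 10.6% in stimulated 1 and 24.4% in stimulated 2, and *Atp2a1* over 2.43%, 11.3%, 8.86% and 22.5%. In both, unstimulated 2 lay above stimulated 1. Of the 8 markers, 2 (*Des* and *Ryr1*) had a higher share in both stimulated lists than in both unstimulated lists, with 0%, 0%, 3.20% and 3.39% in *Des* and 0%, 0.784%, 0.882% and 4.18% in *Ryr1*, beside 4.97% of all genes with this pattern. *Ckm* had 0%, 14.4%, 1.53% and 0%, so that unstimulated 2 lay above both stimulated lists. *Mb* and *Pygm* were covered in stimulated 2 only, over 7.10% and 17.4%, and *Eno3* had no peak on its body in any list. Of the 12 markers of other cells, *Pecam1*, an endothelial gene, was covered over 0%, 0.480%, 0% and 3.27%. The fibroblast markers differed in the list that covered them: *Col1a1*, a collagen gene, was covered over 5.81% in stimulated 2 and 0% in the others, *Dcn*, the gene of decorin, over 3.33% in unstimulated 2 and 0% in the others, and *Pdgfra*, a growth factor receptor gene, over 0.533% in unstimulated 2, 1.67% in stimulated 1 and 0% in the others.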
